A study of Bos taurus with 4 samples.

Results

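The genes described here are the bovine genes whose transcripts gave higher array signals in morulae exposed to high glucose on every array of the study. Among 15229 genes with a named probe, 27 had a deposited log2 ratio of high glucose over control glucose at 0.4 or more (1.32-fold or more) on all 4 arrays, which is a share of 0.177%. A gene was represented by its named probe of highest mean raw intensity. Of these 27 genes, CPEB4, ID2, MGST1, PLAGL1 and SDS were left out by name, and 22 genes remained. The mirrored threshold, -0.4 or less on all 4 arrays, was met by 44 genes (0.289%). Because the ratios themselves chose the 22 genes, their ratios and signals are given as a description, without a test, and the direction is fixed by the choice.

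The study compared pools of 10 morulae from embryos exposed to high glucose (HG, 5 mM) with pools of 10 morulae from embryos kept in control glucose (CTL, 0.2 mM). All embryos were made in vitro from oocytes of slaughterhouse ovaries, and all were grown in synthetic oviduct fluid with fatty-acid free albumin. The glucose difference lasted from day 0 to day 3 of culture, after which every embryo was moved to control medium until day 5 and collected 120 h after fertilization. Each of the 4 arrays, which are called areas after their place on the slide, carried 1 HG pool and 1 CTL pool, with HG in the dye Cy5 and CTL in Cy3 on areas 1 and 2, and HG in Cy3 and CTL in Cy5 on areas 3 and 4. Whether the pools stem from separate rounds of fertilization is not stated, and p-values therefore describe the spread between these pools only. The breed Holstein is recorded for 1 pool of each area, the CTL pool on areas 1 and 2 and the HG pool on areas 3 and 4.

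Glucose is a minor fuel of the early bovine embryo, which lives mainly on pyruvate, lactate and amino acids until compaction and takes up more glucose as it forms a blastocyst. The early cleavages run on transcripts stored in the oocyte. The genome of the bovine embryo becomes active later in cleavage, and the morula then carries a mixture of remaining maternal and newly made embryonic transcripts. In a pool of whole embryos fewer cells of a type and less RNA per cell cannot be told apart.

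As background for the 22 genes, 0 of 7830 genes passed limma's adjusted threshold of 0.05 for HG over CTL (smallest adjusted p = 0.773), while 178 genes, 2.27%, were higher in HG and 318 were lower by unadjusted p under 0.05. All 22 genes were above background in HG on all 4 areas, and 21 of them also in CTL on all 4. The threshold was met by 27 of the 7897 genes above background (0.342%) and by 0 of the 7332 others. The 22 probes were bright, at percentiles 66.5 to 98.0 of mean raw intensity with a median of 82.2. None of their spots was marked as ignored in the scanner files. The median of the 22 mean ratios was 0.87 (1.83-fold), beside 0.00 for all genes, and the means ran between 0.62 (UBAC2) and 1.42 (CALB1, whose CTL pools were above background on 3 of 4 areas). The values below are deposited log2 ratios of HG over CTL on areas 1, 2, 3 and 4, followed by the mean ± SD over the 4 areas. Signals are normalised intensities rebuilt from the scanner files, also in the order of areas 1 to 4. A lowest HG signal above the highest CTL signal was seen for 12 of the 22 genes, where 0.815% of all genes with values on all areas and 1.44% of those above background had this order. The signals come from the same spots as the ratios that chose the 22 genes, so the choice itself raises this count.

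**Figure D1:**
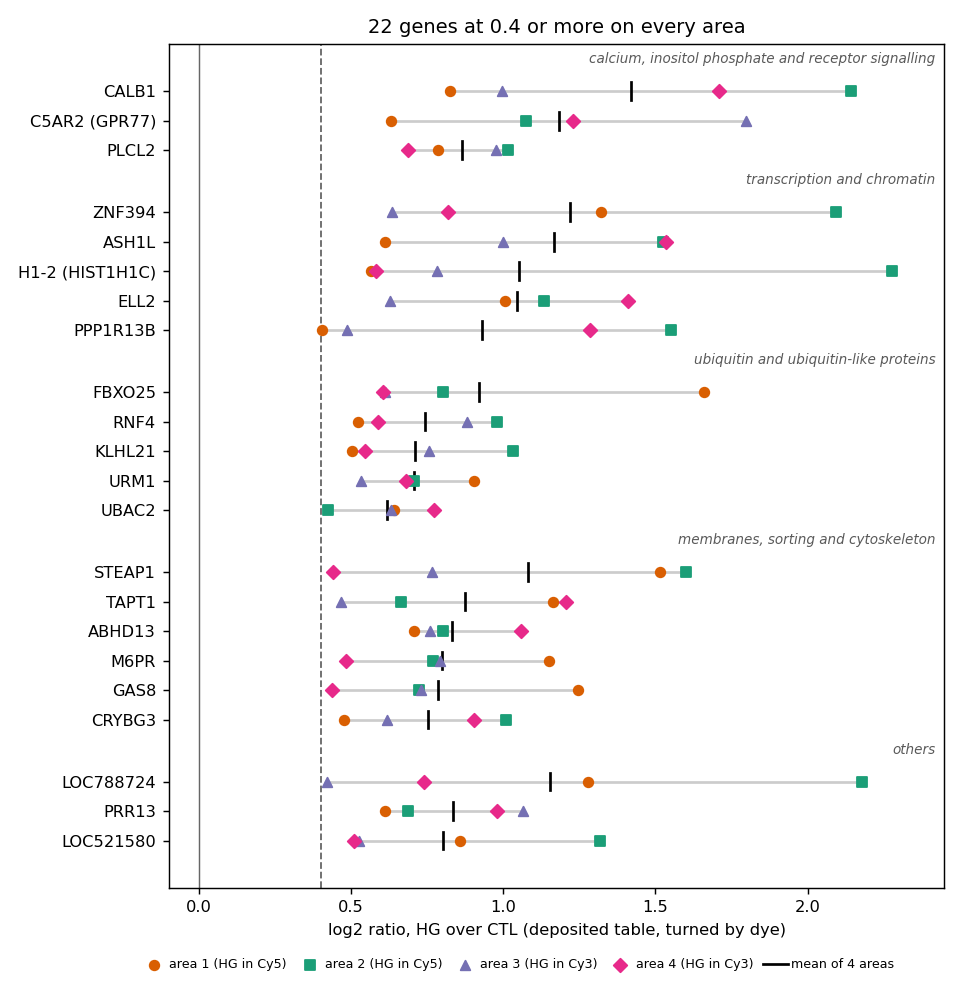
Deposited log2 ratio of HG over CTL (horizontal axis) for each of the 22 genes, grouped by role. Circles, squares, triangles and diamonds are areas 1, 2, 3 and 4, short bars are means of the 4 areas, and the dashed line is the threshold of 0.4. CALB1 has the highest mean, 1.42, and UBAC2 the lowest, 0.62; 4 genes reach values over 2, each of them on area 2.

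Among the 22 genes, 3 act in calcium, inositol phosphate and receptor signalling. CALB1 encodes calbindin, a cytosolic EF-hand protein that buffers calcium. Its ratios were 0.82, 2.14, 1.00 and 1.71 (mean 1.42 ± 0.62, SD, n = 4). CALB1 signals were 536, 711, 579 and 598 in the HG pools and 321, 151, 267 and 165 in the CTL pools. Every HG pool lay above every CTL pool, and the HG pools were close to each other, while the CTL pools of areas 2 and 4 lay well below those of areas 1 and 3. The difference between areas 2 and 4 and areas 1 and 3 in the CALB1 ratio thus lay mostly in the CTL signal, which was above background on 3 of 4 areas.

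Of 12 EF-hand calcium-binding genes above background, CALB1 was the 1 gene above 0 on all 4 areas, where 6.55% of genes above background were above 0 on all 4 and 7.57% were below 0 on all 4. The list median was -0.28, beside -0.01 for all genes above background. CALB1 is above 0 on every area through the choice of genes, as each of the 22 genes is in its list. This list and those for inositol phosphate, complement, elongation, STEAP, ABHD and CLCN genes were fixed with earlier results of these data known. CETN3, a centrin of the centrosome, was below 0 on every area, with ratios of -0.55, -0.92, -0.58 and -0.02. The related calbindin genes CALB2 and S100G were not above background.

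PLCL2 encodes a phospholipase C-like protein that lacks phospholipase activity and binds inositol phosphates. Its ratios of 0.78, 1.02, 0.98 and 0.69 (mean 0.87 ± 0.16, SD, n = 4) had the narrowest span of the 22. PLCL2 signals were 969, 993, 1291 and 1246 in the HG pools and 649, 483, 610.4 and 759.6 in the CTL pools. The lowest HG pool exceeded the highest CTL pool, and areas 2 and 3, which carried opposite dyes, had the highest ratios. Of 9 genes of phospholipase C and inositol phosphate signalling above background, PLCL2 and the inositol trisphosphate kinase gene ITPKC were above 0 on all 4 areas and 0 were below 0 on all 4. The ITPKC ratios were 0.03, 0.47, 0.40 and 0.31, but in 0 of 5 rebuilt sets was ITPKC above 0 on all 4 areas. The list median was 0.07.

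C5AR2, named GPR77 on the array, encodes a receptor for the complement fragment C5a that does not signal through G proteins. Its ratios were 0.63, 1.07, 1.80 and 1.23 (mean 1.18 ± 0.48, SD, n = 4). C5AR2 signals were 653, 422, 1862 and 794 in the HG pools and 469, 198, 489 and 319.8 in the CTL pools. The HG pool was the higher on each area, but the groups overlapped, with area 2 low and area 3 high in both pools. With the sign of area 3 turned, the mean was 0.28, the lowest of the 22 under that reading. Of 3 complement genes above background C5AR2 was the 1 gene above 0 on all 4 areas, and the receptor genes C5AR1 and C3AR1 were not above background.

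**Figure D2:**
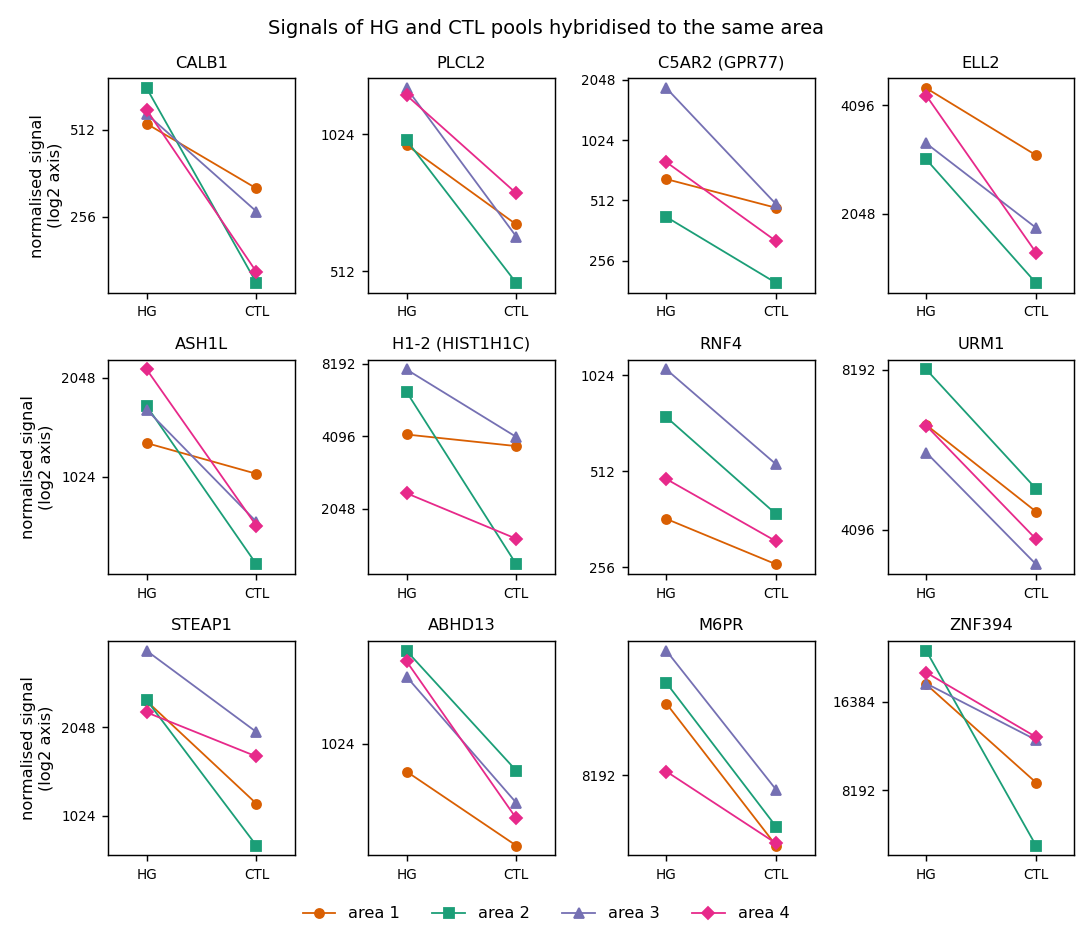
Normalised signals (vertical axes, log2 scale, a separate range for each gene) of the HG pool (left) and the CTL pool (right) of each area, for 12 of the 22 genes. Lines join the 2 pools of the same area; every line falls towards CTL, and the CTL pools of CALB1 are spread more widely than its HG pools.

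A group of 5 genes with roles in transcription and chromatin had mean ratios between 0.93 and 1.22. ZNF394, a zinc finger gene with the brightest probe of the 22, had ratios of 1.32, 2.09, 0.63 and 0.82 (mean 1.22 ± 0.65, SD, n = 4). Its signals were 18745, 24372, 18871 and 20560.0 in the HG pools and 8696, 5309, 12139 and 12420.4 in the CTL pools. No CTL pool reached an HG pool, and the low CTL pool of area 2 accompanied the highest ratio.

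ELL2 encodes an elongation factor of RNA polymerase II and a part of the super elongation complex. Its ratios were 1.01, 1.13, 0.63 and 1.41 (mean 1.04 ± 0.32, SD, n = 4). ELL2 signals were 4575, 2899.7, 3214 and 4363 in the HG pools and 2979, 1315, 1872 and 1598 in the CTL pools. The CTL pool of area 1 was higher than the HG pool of area 2, so the groups overlapped although HG was the higher on each area. Of 15 transcription elongation genes above background, ELL2 and NELFA (WHSC2 on the array), a subunit of the negative elongation factor, were above 0 on all 4 areas. NELFA had ratios of 1.03, 0.18, 0.29 and 0.36. CDK9, the kinase of the positive elongation factor, and TCEA1, which rescues stalled polymerase, were below 0 on all 4, with means of -0.50 and -0.52. The paralog ELL was at -2.15, 0.35, 0.49 and 1.23, and the list median was -0.09.

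ASH1L encodes a histone methyltransferase of the trithorax group. Its ratios were 0.61, 1.52, 1.00 and 1.54 (mean 1.17 ± 0.45, SD, n = 4). ASH1L signals were 1297, 1679, 1636 and 2166 in the HG pools and 1047, 557, 749 and 728 in the CTL pools. The groups did not overlap, and areas 2 and 4 had ratios close to each other and above those of areas 1 and 3. In a list of histone methyltransferase genes of this type and their partners, which was chosen after the 22 genes were known, ASH1L was the 1 of 8 genes above background that was above 0 on all 4 areas. NSD1, another methyltransferase, was below 0 on all 4 with a mean of -0.14. For the list the median was -0.09.

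PPP1R13B encodes an apoptosis-stimulating protein that binds p53. Its ratios were 0.40, 1.55, 0.48 and 1.28 (mean 0.93 ± 0.57, SD, n = 4), which made it the closest of the 22 genes to the threshold. PPP1R13B signals were 619, 1049, 522 and 781 in the HG pools and 523, 346, 348 and 305 in the CTL pools. The groups overlapped by less than 1 unit, between the HG pool of area 3 and the CTL pool of area 1. Of 7 p53 and apoptosis-stimulating protein genes above background, in a list chosen after the 22 genes were known, PPP1R13B was the 1 gene above 0 on all 4 areas and BAX, a pore-forming protein of mitochondrial cell death, the 1 gene below 0 on all 4. BAX had ratios of -0.26, -0.30, -0.01 and -0.03, and stayed below 0 on all 4 areas in 2 of 5 rebuilt sets of ratios. The paralogs TP53BP2 and PPP1R13L had mixed signs.

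H1-2, named HIST1H1C on the array, encodes a linker histone, which binds the DNA between nucleosomes. Its ratios were 0.57, 2.28, 0.78 and 0.58 (mean 1.05 ± 0.82, SD, n = 4). H1-2 signals were 4167, 6262, 7758 and 2377 in the HG pools and 3729, 1204, 4069.7 and 1537 in the CTL pools. Area 2 stood far above the other areas in the ratio, and the CTL pools of areas 1 and 3 exceeded the HG pool of area 4, so the groups overlapped. In all, 3 linker histone genes were above background, and all 3 were above 0 on all 4 areas. HIST1H1D was at 0.90, 1.67, 0.45 and 0.25 (mean 0.82 ± 0.63, SD, n = 4). HIST1H1E was at 0.23, 1.31, 0.07 and 0.83 (mean 0.61 ± 0.57, SD, n = 4), and was not above 0 on every area when arrays were centred on their median and not fitted by loess. These genes are close copies of each other, so their probes may read each other's transcripts, and the list was chosen after the 22 genes were known. For comparison, 1 of 10 core histone genes above background, H2AFJ, was above 0 on all 4 areas, with ratios of 0.57, 1.34, 0.23 and 0.80, and the median of the 10 genes was 0.07.

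LOC521580, which RefSeq lists as a long non-coding RNA gene, had ratios of 0.86, 1.32, 0.53 and 0.51 (mean 0.80 ± 0.38, SD, n = 4). Its signals were 4027, 4982, 6114 and 3902 in the HG pools and 2914, 1958, 3807 and 2677 in the CTL pools, without overlap. In the gene order of the RefSeq assembly ARS-UCD2.0, LOC521580 and H1-2 stand in the same histone gene cluster, with 24 protein-coding genes between them, of which 22 have histone symbols. Of 3 other genes of this stretch on the array, 2 were above background, and these were HIST1H1D and HIST1H1E described above. LOC521580, H1-2, HIST1H1D and HIST1H1E each had their highest ratio on area 2, as did 11 of the 22 genes in all. This stretch of genes was looked at after the values were seen.

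Another 5 genes had roles in ubiquitin and ubiquitin-like protein pathways, with mean ratios between 0.62 and 0.92. RNF4 encodes a ubiquitin ligase that recognises chains of the ubiquitin-like protein SUMO. Its ratios were 0.52, 0.98, 0.88 and 0.59 (mean 0.74 ± 0.22, SD, n = 4). RNF4 signals were 363, 756, 1066 and 484 in the HG pools and 262, 376, 538 and 309 in the CTL pools. Both pools varied together between areas, lowest on area 1 and highest on area 3, so the groups overlapped although HG was the higher on each area.

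SUMO is attached by a cascade of enzymes and removed by SENP proteases. Of 13 genes of this pathway above background, in a list chosen after the 22 genes were known, RNF4, SENP6 and SENP7 were above 0 on all 4 areas and SUMO3 and SAE1 were below 0 on all 4. SENP6 was at 1.17, 0.61, 0.24 and 0.56 (mean 0.65 ± 0.39, SD, n = 4). SENP7 was at 1.02, 0.41, 0.47 and 0.29 (mean 0.55 ± 0.33, SD, n = 4). Both of these proteases act mainly on SUMO chains. SUMO3, which forms such chains, averaged -0.43, and SAE1, a subunit of the activating enzyme, averaged -0.32. Over the list the median was -0.01.

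URM1 encodes a ubiquitin-like sulfur carrier that serves the thiolation of transfer RNAs. Its ratios were 0.90, 0.71, 0.53 and 0.68 (mean 0.71 ± 0.15, SD, n = 4). URM1 signals were 6454, 8207, 5726 and 6433 in the HG pools and 4434, 4896, 3529 and 3936 in the CTL pools. The groups did not overlap, and area 2 had the highest signal in either pool. Of 6 genes of the URM1 pathway above background, in a list chosen after the 22 genes were known, URM1 was the 1 gene above 0 on all 4 areas, 0 were below 0 on all 4, and the median was 0.19.

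FBXO25 encodes an F-box protein, which brings substrates to a cullin ubiquitin ligase. Its ratios were 1.66, 0.80, 0.61 and 0.60 (mean 0.92 ± 0.50, SD, n = 4). Area 1 was the highest and areas 3 and 4 were nearly equal. FBXO25 signals were 1607, 2033, 1270.2 and 1098 in the HG pools and 594, 1157, 774 and 714 in the CTL pools, and they overlapped between the HG pool of area 4 and the CTL pool of area 2. In a list of F-box genes and their adaptor SKP1, again chosen after the 22 genes were known, 18 genes were above background, and FBXO25, FBXO9 and FBXO11 were above 0 on all 4 areas and FBXO21 was below 0 on all 4. FBXO9 and FBXO11 averaged 0.20 and 0.13, and FBXO21 averaged -0.48. FBXO9 and FBXO11 were above 0 on all 4 areas in 0 of 5 rebuilt sets, where the FBXO11 mean lay between -0.03 and 0.07.

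KLHL21 encodes a kelch-type adaptor of cullin-3 ubiquitin ligases that in human cells takes part in cell division. Its ratios were 0.50, 1.03, 0.76 and 0.54 (mean 0.71 ± 0.24, SD, n = 4). KLHL21 signals were 1649, 2657, 1841 and 1656 in the HG pools and 1479.9, 1307, 992 and 1120.0 in the CTL pools. Here too the pools did not overlap, but on area 1 the rebuilt signals of the pools were close to each other. Of 17 cullin-3 adaptor and partner genes above background, in a list chosen after the 22 genes were known, KLHL21 and KLHL20 were above 0 on all 4 areas and 0 were below 0 on all 4. KLHL20 was at 0.40, 1.38, 1.72 and 0.10 (mean 0.90 ± 0.77, SD, n = 4), with CTL above background on 2 of 4 areas. This list had a median of 0.18, and 14 of its 17 means were above 0, where 48.8% of all genes above background had a mean above 0. KLHL21 is among the 14 through the choice of genes. The same count was 3 of 12 for the EF-hand list and 5 of 15 for the elongation list. It was 11 of 18 for the F-box list and 5 of 6 for the URM1 list.

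UBAC2 encodes a membrane protein of the endoplasmic reticulum with a ubiquitin-associated domain. Its ratios were 0.64, 0.43, 0.63 and 0.77 (mean 0.62 ± 0.14, SD, n = 4), with the smallest SD of the 22. UBAC2 signals were 932, 1778, 1708 and 1314 in the HG pools and 693, 1336, 1014 and 748 in the CTL pools, and they overlapped between areas.

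The largest group, of 6 genes, had roles in membranes, protein sorting and the cytoskeleton. STEAP1 encodes a membrane haem protein of the STEAP family of metalloreductases. Its ratios were 1.52, 1.60, 0.76 and 0.44 (mean 1.08 ± 0.57, SD, n = 4). STEAP1 signals were 2510.5, 2528, 3721 and 2298 in the HG pools and 1124, 809.6, 1970.3 and 1627 in the CTL pools. The groups did not overlap, and the ratios with HG in Cy5, on areas 1 and 2, were the higher ones. STEAP3, a ferrireductase, likewise had its higher ratios on areas 1 and 2, with values of 0.68, 0.56, 0.01 and 0.04, and stayed above 0 on all 4 areas in 3 of 5 rebuilt sets. STEAP2 was at 0.74, 0.98, -0.08 and -0.31, and thus above 0 on areas 1 and 2 and below 0 on areas 3 and 4. Of 13 STEAP and iron-handling genes above background, STEAP1 and STEAP3 were above 0 on all 4 areas, and SLC11A2, an iron transporter, was below 0 on all 4 with a mean of -0.23. The list median was 0.30.

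M6PR encodes the cation-dependent mannose 6-phosphate receptor, which carries hydrolases to lysosomes. Its ratios were 1.15, 0.77, 0.79 and 0.48 (mean 0.80 ± 0.27, SD, n = 4). M6PR signals were 11098, 12109.6, 13873 and 8328 in the HG pools and 6088, 6596, 7711 and 6146 in the CTL pools. The groups did not overlap, and the CTL pools were closer to each other than the HG pools were. Of 16 genes of this sorting route above background, in a list chosen after the 22 genes were known, M6PR, the sorting adaptor gene GGA3 and HEXA, a lysosomal hydrolase gene, were above 0 on all 4 areas. GGA3 was at 0.61, 0.48, 0.32 and 0.44 (mean 0.47 ± 0.12, SD, n = 4), and HEXA averaged 0.38. VPS26A, of the retromer that returns receptors, and LAMP2, a lysosomal membrane protein, were below 0 on all 4 with means of -0.56 and -0.63. The other mannose 6-phosphate receptor gene, IGF2R, was at -0.70, 0.85, -0.13 and 0.96, and the list median was 0.03.

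ABHD13 encodes a predicted serine hydrolase of the alpha/beta-hydrolase fold. Its ratios were 0.71, 0.80, 0.76 and 1.06 (mean 0.83 ± 0.16, SD, n = 4). ABHD13 signals were 898, 1596, 1411 and 1518 in the HG pools and 631, 901, 773 and 718 in the CTL pools. The HG pool of area 1 lay just below the CTL pool of area 2, and the other HG pools lay above every CTL pool. Of 13 ABHD genes above background, ABHD13 was the 1 gene above 0 on all 4 areas, while ABHD16A (BAT5 on the array) and ABHD17C (FAM108C1 on the array) were below 0 on all 4. Their means were -0.20 and -0.50, and the list median was -0.10.

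TAPT1 encodes a transmembrane protein of the base of the cilium. Its ratios of 1.16, 0.66, 0.46 and 1.21 (mean 0.87 ± 0.37, SD, n = 4) were near each other on areas 1 and 4 and lower on areas 2 and 3. TAPT1 signals were 2305, 2811, 1453 and 2411 in the HG pools and 1334, 1824, 966 and 1023 in the CTL pools, and they overlapped between areas. GAS8 encodes a subunit of the dynein regulatory complex of motile cilia. GAS8 had ratios of 1.25, 0.72, 0.73 and 0.44 (mean 0.78 ± 0.34, SD, n = 4). Its signals were 756, 1049, 973 and 950.3 in the HG pools and 341, 629, 549 and 700.4 in the CTL pools, with no overlap. CRYBG3, which encodes a protein with beta-gamma-crystallin domains, had ratios of 0.48, 1.01, 0.62 and 0.90 (mean 0.75 ± 0.25, SD, n = 4). CRYBG3 signals were 1112, 1602, 1131 and 1281 in the HG pools and 962, 776, 686 and 672 in the CTL pools, also with no overlap.

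The remaining genes were PRR13 and the unnamed gene LOC788724. PRR13, which encodes a small proline-rich protein, had ratios of 0.61, 0.69, 1.07 and 0.98 (mean 0.84 ± 0.22, SD, n = 4). PRR13 signals were 2471, 8055, 10927 and 6871 in the HG pools and 2152, 4894, 4821 and 3499 in the CTL pools, and the pools of area 1 were low in HG and CTL alike. LOC788724, a protein-coding gene without a name in RefSeq, had ratios of 1.28, 2.18, 0.42 and 0.74 (mean 1.15 ± 0.77, SD, n = 4). Its signals were 9787, 15153, 8818 and 7328 in the HG pools and 5017, 3014, 6082 and 4436 in the CTL pools. These groups did not overlap, and the CTL pool of area 2 was the lowest.

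The size of the ratios differed between genes and between areas. The medians of the 22 ratios were 0.80, 1.02, 0.74 and 0.76 on areas 1 to 4. Area 2 held the highest ratio of 11 genes, area 4 of 5, area 1 of 4 and area 3 of 2. Area 1 held the lowest ratio of 10 genes. The 4 ratios of a gene lay within 0.5 of each other for 6 genes and spread over more than 1 for 8 genes. The SD over the areas ran between 0.14 (UBAC2) and 0.82 (H1-2), with a median of 0.35, beside 0.49 for all genes above background. Since genes were chosen by their lowest area, these SDs are shaped by the choice as well. Just inside the threshold, the lowest ratios were 0.404 for PPP1R13B, 0.420 for LOC788724 and 0.425 for UBAC2. Just outside it, they were 0.397 for MFRP, 0.390 for LOC526064 and 0.389 for PLK1S1.

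The ratios depended on how the intensities were processed. Ratios rebuilt from the scanner intensities, with normexp background correction and loess, were above 0 on all 4 areas for 22 of 22 genes and at 0.4 or more on all 4 for 16. The other 6 genes, PRR13, ASH1L, H1-2, KLHL21, CRYBG3 and PPP1R13B, lay below 0.4 on area 1, with the lowest value 0.16 for KLHL21. The deposited ratio exceeded the rebuilt ratio on area 1 by a median of 0.28 for the 22 genes, by 0.17 for all genes above background and by 0.01 for the dim genes. On area 3 the deposited ratio was the lower one, with a median difference of -0.12 for the 22 genes and -0.09 for all genes above background. Over 5 ways of processing the scanner intensities, CALB1, PLCL2, ELL2, FBXO25 and STEAP1 met the threshold each time, and H1-2, KLHL21, CRYBG3 and PPP1R13B never did. All 22 genes were above 0 on every area under each of the 5.

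**Figure D3:**
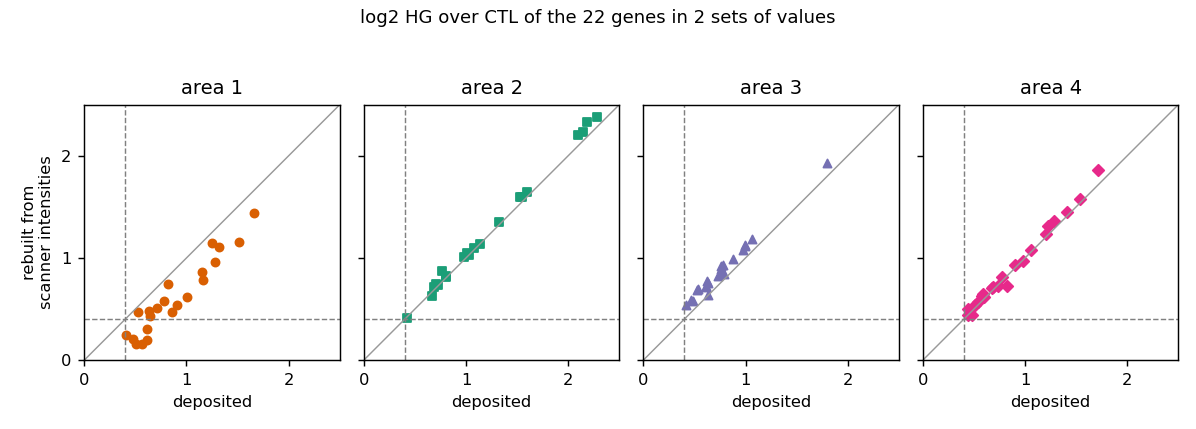
Deposited (horizontal) and rebuilt (vertical) log2 ratios of HG over CTL for the 22 genes on each area, with the line of equality and dashed lines at 0.4. On area 1 the points lie below the line of equality, and 6 genes fall under 0.4 there when rebuilt; on area 3 they lie above it.

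The choice of genes asked for 0.4 or more in both dye orientations and so left out genes with a larger dye difference than HG difference. Values by dye are therefore given for the 22 genes as a description. With a dye term in the limma fit on rebuilt ratios, 0 of 7830 genes passed the adjusted threshold (smallest adjusted p = 0.711), and 401 genes (5.12%) lay under 0.05 by unadjusted p. The mean deposited ratio was higher with HG in Cy5 for 16 of the 22 genes and with HG in Cy3 for 6, and the medians were 0.97 with HG in Cy5 and 0.73 with HG in Cy3. The 2 areas of 1 dye orientation were also different pools, so dye and pool cannot be told apart for a single gene.

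Of the 22 genes, 11 had further named probes, which the choice of genes did not read. These probes share the pools and arrays with the brightest probe, so they are described and not tested. Of 24 further probes, 4 were above 0 on all 4 areas, where 3.73% of the further probes of all genes were, 2 were below 0 on all 4, and 0 reached 0.4 on all 4. Of the 9 further probes above background, 2 were above 0 on all 4, beside 5.28% of all such probes. The further probe of H1-2 gave 0.48, 0.45, 0.35 and 0.50, and a further probe of FBXO25 gave 0.33, 0.29, 0.11 and 0.42. The other FBXO25 probe above background, of similar brightness, gave -0.65, -0.06, -0.17 and 0.77. A further probe of PLCL2, not above background by the rule used here, gave 0.32, 0.23, 0.24 and 0.36. The other further PLCL2 probe, also not above background, gave 0.31, 0.33, -0.27 and -0.30. A UBAC2 probe that was not above background gave -0.44, -0.26, -0.14 and -0.15. For RNF4, however, a further probe above background gave -0.53, -0.16, -0.58 and -0.30, opposite in sign to the brightest probe on every area. The brighter further probe of M6PR gave -0.87, -0.02, 0.32 and -0.45, and that of ASH1L gave -0.11, 0.19, 0.21 and 0.21. This ASH1L probe was nearly as bright as the brightest ASH1L probe, with mean raw intensities of 1246 and 1302. For M6PR these intensities were 3601 and 9081. The rest of the further probes above background were dimmer, between 232 (URM1) and 399 (RNF4). The further probes of CALB1 were not above background in either group on all areas. Over the 9 further probes above background, 5 had a mean above 0 and 4 did not.

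**Figure D4:**
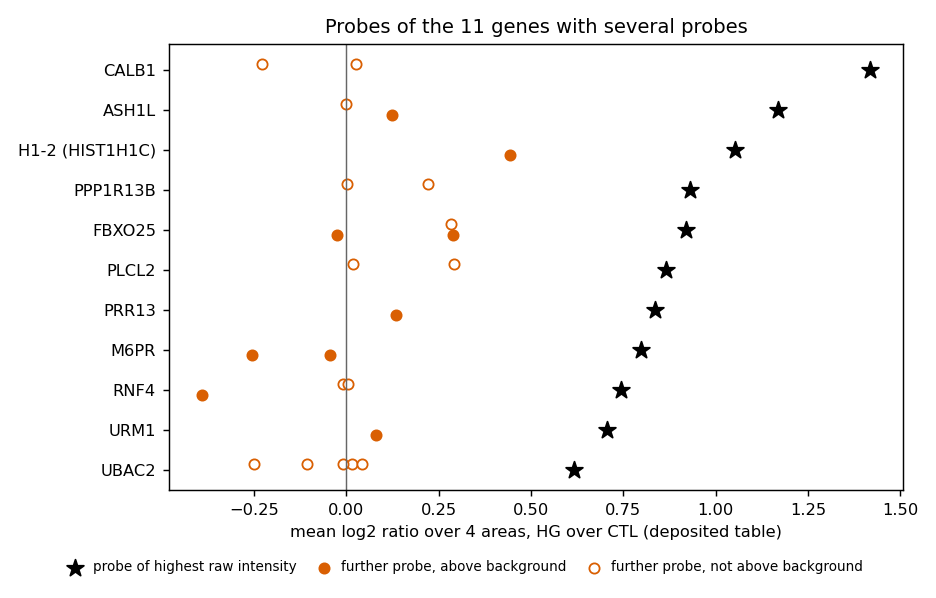
Mean log2 ratio of HG over CTL over the 4 areas (horizontal axis) for every probe of the 11 genes with several probes. Stars are the brightest probes, which chose the genes, and circles are the 24 further probes, filled where above background. Further probes lie between -0.39 (RNF4) and 0.44 (H1-2), all below the star of their gene.

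In a list of CLCN chloride channel and transporter genes and their partner OSTM1, 5 genes were above background. CLCN4, an exchanger of chloride and protons, was above 0 on all 4 areas at 1.40, 1.37, 0.77 and 0.35 (mean 0.97 ± 0.51, SD, n = 4), short of the threshold on area 4 alone. The list median was 0.00. Among the list genes named for one sign on every area, HIST1H1D, SENP7, CLCN4, GGA3, HEXA, KLHL20, NELFA, CDK9, FBXO21, LAMP2, VPS26A, SAE1 and ABHD17C kept it in all 5 rebuilt sets of ratios, and SENP6, HIST1H1E, CETN3, TCEA1, SUMO3, SLC11A2, NSD1 and ABHD16A kept it in 4 of 5. None of the 5 sets turned area 3. With area 3 turned, the means were 0.04 for KLHL20, -0.03 for ABHD16A, -0.06 for SAE1 and -0.09 for ABHD17C, while CLCN4 was at 0.59 and CDK9 at -0.36. In the RefSeq gene order, 21 of the 22 genes could be placed among protein-coding genes, and 31 of their direct neighbours were on the array. Of 14 neighbours above background, PCBP2, next to PRR13, was above 0 on all 4 areas, 0 were below 0 on all 4, and 0 met the threshold. The median of these 14 was 0.04.

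Markers of other cells had medians furthest from 0 on areas 1 and 3, in opposite directions. On area 4 the stromal markers were also lower in HG by their median. Across genes, which are not independent replicates, the ratios of areas 1 and 3 correlated at -0.50 and those of areas 2 and 4 at 0.14 (Pearson), while the other pairs lay between 0.01 and 0.13. Of 18 cumulus and granulosa markers 6 were above background, and their medians on areas 1 to 4 were -1.44, 0.21, 1.81 and -0.26. Of 20 stromal markers 16 were above background, with medians of -1.72, 0.01, 2.03 and -0.71. Summed signals of the cumulus markers ran between 1636 and 25671 in the HG pools and between 1655 and 8429 in the CTL pools. Those of the stromal markers ran between 37890.3 and 238938 in the HG pools and between 58987 and 119427 in the CTL pools. On area 4 the cumulus sums were 3979 in HG and 8429 in CTL, and the stromal sums were 65703 and 108820. On area 2 the cumulus sums were 2066 in HG and 1655 in CTL, and the stromal sums were 48009 and 58987. The granulosa markers FOXL2, AMH and FSHR were not above background, whereas TIMP1, STAR and INHBA were. Of 11 embryo markers 6 were above background, among them POU5F1, DPPA3 and TFAP2C, while CDH1 and SALL4 were not, and their medians were 0.60, 0.00, -1.23 and -0.14.

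Some markers had the same sign on every area. CYP19A1, the aromatase of granulosa cells, was at -0.70, -0.50, -0.35 and -0.19, with HG above background on 2 of 4 areas. Among the stromal markers, FN1 (fibronectin) was at -0.70, -0.56, -0.71 and -1.22. The proteoglycan gene BGN was at 0.31, 0.98, 1.27 and 0.03, with CTL above background on 1 of 4 areas. Its mean of 0.65 became 0.01 with area 3 turned. POU5F1, a pluripotency factor, was at -0.14, -0.09, -1.15 and -0.42, and its mean of -0.45 became 0.12 with area 3 turned. In the rebuilt sets CYP19A1, FN1 and POU5F1 kept the sign on every area in 5 of 5 and BGN in 3 of 5.

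**Figure D5:**
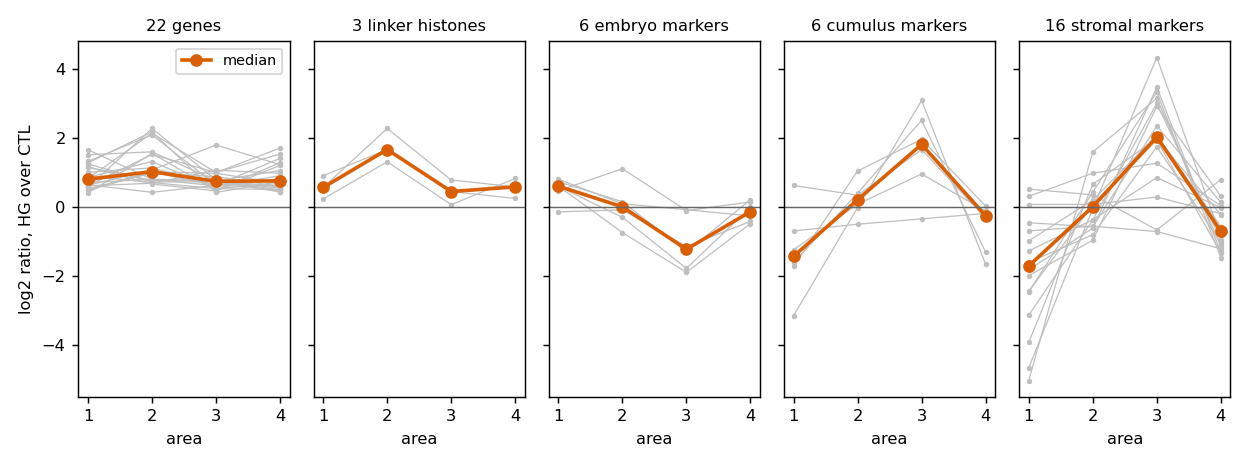
Log2 ratio of HG over CTL (vertical axis) on areas 1 to 4 for the 22 genes, the linker histones and the embryo, cumulus and stromal markers above background. Grey lines join the values of a gene, which have no order in time, and orange points are medians. The 22 genes stay above 0, while the cumulus median is -1.44 on area 1 and 1.81 on area 3.

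None of the 22 genes shared the opposite signs of the cumulus and stromal markers on areas 1 and 3, because the choice of genes required the same sign. The part of other cells in the ratios of the 22 genes was not tested. On areas 2 and 4 alone, chosen after the markers were seen, the median of the 22 means was 0.93, and 447 genes were at 0.4 or more on both, by construction with all 22 among them. Area 4 was not free of the marker difference, with a stromal median of -0.71. Since the dye record of area 3 decides its sign, the values were also computed with area 3 turned. The median of the 22 means was then 0.50, with single means between 0.28 (C5AR2) and 0.94 (LOC788724), and 72 genes met the threshold, by construction with 0 of the 22 among them.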

How the data were processed

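The 4 arrays carried 2 channels each. The scanner files held raw spot intensity at the wavelengths of Cy3 and Cy5 with local background, not normalized, per the file headers. The deposited table gave log2 ratios of Cy5 over Cy3 that the authors made with limma per the submitters' processing notes. Their background correction and normalization are not given in the sources used here. The direction was read by correlation with rebuilt Cy5 over Cy3 ratios (0.976 to 0.993 per area), and the column medians lay between -0.01 and 0.02. Areas 3 and 4 were multiplied by -1 to give HG over CTL.

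Ratios were rebuilt in limma 3.58.1 under R 4.3.3 from mean intensities, with normexp on the median local background (offset 50), within-array loess, and control spots at weight 0. Signals per pool came from Aquantile scaling of these values between arrays. A probe was above background when its log2 signal passed the mean of the 153 negative control spots by 2 SD, per area and channel. Genes above it in HG on all 4 areas or in CTL on all 4 numbered 7897. Of these, 7830 had values on all areas and were fitted with lmFit and eBayes, with Benjamini-Hochberg adjustment. A check on simulated data had to recover planted changes at a spread smaller than that of these data. It therefore does not show what the fit could find among these 4 ratios. Ignored spots were set to missing. Symbols came from the platform annotation (21790 probes with a symbol), and genes were grouped by these symbols. Updates through RefSeq, found for 982 of the 15229 symbols, served to name genes and to match the lists. They grouped genes in an alternative setting only.

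The members and the gene lists were chosen with earlier results of these data known. Named were all 22 genes, the nearest genes on either side of the threshold, and list genes with the same sign on all areas. The number of arrays, 4, limits the precision, and all lie on the same slide. Alternatives were other areas, signs, thresholds, probe choices and ways of processing the scanner intensities.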

Additional observations from a re-analysis of the deposited data

Results flagged for a closer look

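Each of the 22 genes was checked for an area that stood far from the other 3, and 1 gene met the criterion. H1-2 had a ratio of 2.28 on area 2, against 0.57, 0.78 and 0.58 on areas 1, 3 and 4. Its gap to the nearest area was 0.874 of its whole range, beyond Dixon's critical value for 4 values. Chance marks about 1 in 20 groups not chosen by their values, and this rate does not hold here, because genes with a low ratio on any area had been left out. On area 2 the H1-2 signal was 6262 in the HG pool and 1204 in the CTL pool. The further probe of H1-2 was at 0.45 on area 2, beside 0.48, 0.35 and 0.50 on areas 1, 3 and 4. It was far dimmer, with a mean raw intensity of 238, against 3850 for the brightest H1-2 probe. Its CTL signal was above background on 3 of 4 areas. Whether so dim a probe could show a ratio as high as 2.28 was not tested. Without area 2 the H1-2 mean was 0.64.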

How the results depend on the processing

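With the threshold asked of 3 areas at a time, between 55 and 215 genes met it, and the 215 were found without area 3. By construction these and the 447 genes on areas 2 and 4 include all 22. With area 3 turned against its recorded dye, 72 genes met it, at a threshold of 0.3, 58, and at 0.5, 14. With median centring in place of loess 8 genes met it, with median pixel intensities 43, with the mean over all probes of a gene 13, and on areas 2 and 4 only 447. Of the 22 genes, 6 were among the 8, 15 among the 43 and 13 among the 13. The 11 genes with a single probe are among these 13 by construction, since a mean over all probes leaves their ratios unchanged. Of the 11 genes with several probes, only H1-2 and PRR13 met the threshold by this mean. With area 1 turned, 20 genes met it, with 0 of the 22 among them. In the 5 other settings the count lay between 15 and 23, with between 14 and 22 of the 22 genes among them. The median of the 22 means was 0.50 with area 3 turned and 0.48 with area 1 turned, between 0.81 and 0.94 without an area, and between 0.75 and 0.90 over the scanner settings. The means of single genes moved by more than their SD for 12 genes with area 3 turned and for 15 with area 1 turned, the lowest mean being 0.09, and for 0 in the scanner settings. Means without an area, or on areas 2 and 4, stay above 0 through the choice of genes and say nothing of stability. In limma 0 genes passed for HG over CTL and for dye under every setting run. Each ratio sets a HG pool against the CTL pool of the same array, so the limma fit is itself paired. The pools of areas 1 and 3, whose ratios oppose each other across genes, and the single slide limit what 4 ratios can show.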
